A study of Mus musculus with 110 samples.

Results

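Joining of the JH4 gene segment was compared between a pro-B cell line that lacks IGCR1 and the same kind of line that keeps it, in untreated cells whose cohesin was left in place. The comparison rests on 10 of the 110 libraries of the study, chosen by their titles alone. The deleted group has 4 libraries of genotype IGCR1deleted, Rad21degron, Emu-Bcl2, RAG2 deficient. The undeleted group has 3 libraries of genotype Rad21degron, Emu-Bcl2, RAG2 deficient, each of which was deposited as a b library, the kind used for the deleted line, and as an a library, used here as a check. All cells are v-Abl transformed pro-B lines, were nucleofected with RAG2 and were held in 3 µM STI-571, an Abl kinase inhibitor that arrests such cells, for 4 days. Both groups therefore share the degron on Rad21, a subunit of the cohesin ring, and the Emu-Bcl2 transgene, and neither received the auxin IAA that triggers the degron. The labels do not say how many clones a line comprises, and nothing in them says that replicates were separate cultures, so the tests below measure the spread between these libraries, which may be technical. Another 4 untreated b libraries, titled parental, are given as a background: they are Emu-Bcl2, RAG2 deficient without the degron, and the labels add WT for 2 of them.

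Antibody heavy chain genes are assembled by the RAG recombinase, which first joins a D segment to a JH segment and then a VH segment to the DJH join. RAG recognises recombination signal sequences (RSSs), each a heptamer and a nonamer held apart by a spacer of 12 or 23 bases, and joins segments whose spacers differ. RAG bound at the JH end is thought to scan chromatin that cohesin extrudes past it, and bound CTCF can halt the loop. IGCR1 is a control region with CTCF binding elements that lies between the D array and the VH segments. It is known for keeping scanning within the D array, and deletion of its CTCF elements is known to give heavy use of the VH segments closest to D. The ends of the deletion were not located in the hybrid genome here.

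The RSSs of the 6 VH segments closest to the D array are shown here. They are the only VH segments with enough junctions to be tested, and 5 of them rose. The letters are the most frequent base at each place in reads of all 98 full libraries in which the prey ran outward from the RSS, between 50 reads for the first VH and 984 for Ighv5-2. Each runs 5′ to 3′ away from the VH. Capitals mark the heptamer, the nonamer and, where it was found, the core of the CTCF motif, searched on both strands with 3 of its bases left free. The first and the fourth VH have no gene name here and are given by position: their prey sequences were closest to Ighv5-4, at 91.3 and 96.0% identity.
VH at position 114830805: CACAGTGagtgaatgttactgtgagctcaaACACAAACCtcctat
Ighv5-2: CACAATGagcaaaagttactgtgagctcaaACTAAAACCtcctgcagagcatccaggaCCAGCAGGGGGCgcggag
Ighv2-2: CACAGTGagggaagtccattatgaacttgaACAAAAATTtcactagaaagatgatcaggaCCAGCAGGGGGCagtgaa
VH at position 114855361: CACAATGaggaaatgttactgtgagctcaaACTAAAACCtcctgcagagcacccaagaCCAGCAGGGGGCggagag
Ighv2-3: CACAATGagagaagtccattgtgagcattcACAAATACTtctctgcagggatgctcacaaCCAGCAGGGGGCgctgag
Ighv5-6: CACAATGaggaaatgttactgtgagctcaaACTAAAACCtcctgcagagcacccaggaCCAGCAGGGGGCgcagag

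Positions 114830805 and 114855361 are on chromosome 12 of the hybrid genome to which the reads were aligned. In mm9 the named genes lie at chr12:114816715-114817201 (Ighv5-2), chr12:114826478-114826911 (Ighv2-2), chr12:114849395-114849828 (Ighv2-3) and chr12:114863717-114864167 (Ighv5-6), all on the minus strand, each RSS adjoining the lower coordinate. The letters shown for these 4 genes were identical to mm9. Against the consensus heptamer CACAGTG, the first VH and Ighv2-2 matched at 7 of 7 bases and the other 4 at 6. Against the consensus nonamer, the first VH, Ighv5-2, the fourth VH and Ighv5-6 matched at 8 of 9 bases, and Ighv2-2 and Ighv2-3 at 7. The core letters stood 19 or 21 bases past the nonamer in 5 of the 6, and they were not present on either strand in the 100 bases read past the nonamer of the first VH. Among 77 mm9 V genes with an RSS at their annotated end, 22 (28.6%) held the core letters on either strand within 100 bases of the nonamer. All of the 10 such genes nearest the D array did. A match is a description of letters and was not tested for binding.

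The D segments turn on the same kind of signal. The coding bases are given below in capitals, followed by the RSS that faces the VH side, as the prey reads show them from the JH side outward. Ighd4-1 is the D closest to JH and Ighd1-1 the last of the main array, 61.5 kb further on. The D closest to Ighd3-1, at 94.6% identity, lies at position 114784064, in the interval between the array and the VH segments, 49.5 kb beyond Ighd1-1 and 46.7 kb short of the first VH.
Ighd4-1: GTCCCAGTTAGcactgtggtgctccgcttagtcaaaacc
Ighd2-3: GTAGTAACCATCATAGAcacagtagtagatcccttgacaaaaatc
Ighd1-1: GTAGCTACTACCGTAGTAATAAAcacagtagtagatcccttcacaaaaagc
D near Ighd3-1, position 114784064: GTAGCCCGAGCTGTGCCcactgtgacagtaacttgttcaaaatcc

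A total of 48627 junctions were read in the deleted line and 56425 in the undeleted b libraries, each junction being 1 read. The libraries held 13508, 15327, 5329 and 14463 junctions in the deleted line and 22819, 12679 and 20927 in the undeleted line. Deleted replicate 3 was the shallowest and came from another sequencing run than the other 3 deleted libraries. The 2 groups shared no sequencing run, as read names show, so run and deletion cannot be told apart. Distinct junctions made up 70.6 to 79.1% of reads in the deleted libraries and 54.0 to 59.3% in the undeleted b libraries. No 2 libraries of a group agreed within sampling noise in segment use (chi-square test over segments, which covers counting error only and takes reads as independent molecules), so none was set aside as a library deposited over again. The a and b libraries of the undeleted line carry a different bait. The bases that differ are in capitals, 7 in the b reads of both lines and 1 in the a reads:
b libraries: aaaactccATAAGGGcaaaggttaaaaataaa
a libraries: aaaactccTcaaaggttaaaaataaa

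VH joining was far more frequent in the deleted line. Junctions in the VH region, in either orientation, made up 53.0, 51.5, 50.7 and 47.5% of all junctions in the 4 deleted libraries. In the 3 undeleted libraries they made up 1.78, 1.90 and 1.80%. Later measures of VH junctions count plus-orientation junctions at VH segments, except that those by distance and by orientation count the whole VH region. Every deleted library lay far above every undeleted one. The means were 50.7% ± 2.33 (SD, n = 4) and 1.83% ± 0.0642 (SD, n = 3), a difference of 48.8 points and a ratio of 27.7 (exact permutation test, two-sided, p = 0.0286, the smallest that 35 arrangements allow). The a libraries gave 1.84, 2.04 and 2.02%. In all, 51 measures per library were tested, of which 28 (54.9%) reached that p and 32 (62.7%) had groups that did not overlap. They include shares of all, VH or D junctions, VH diversity and junction structure. Adjusted over the 51 by Benjamini-Hochberg, each of the 28 has an exact permutation p = 0.052, so none passed 0.05 after adjustment. Many are parts of the same total, so a higher VH share and a lower D share are not independent results. The number of cells or alleles that recombined was not measured.

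**Figure D1:**
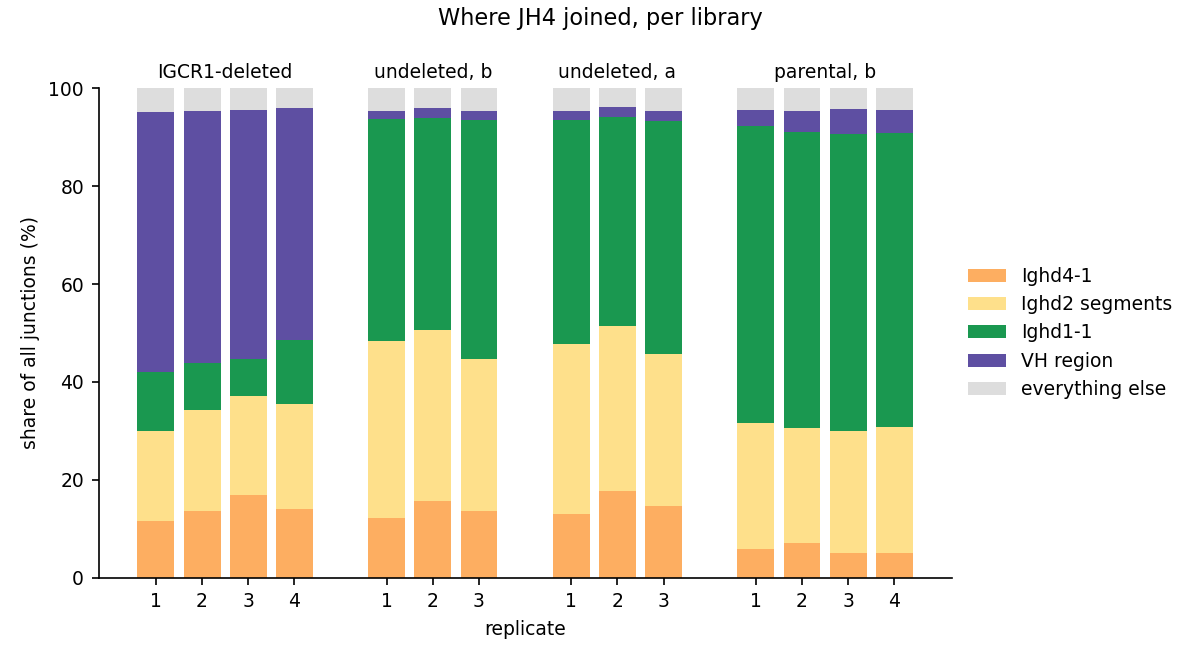
Share of all junctions (%) of each library that fell at Ighd4-1, the Ighd2 segments, Ighd1-1, the VH region and everything else, as stacked bars, 1 bar per replicate, for the deleted, undeleted b, undeleted a and parental b groups. The VH part is 47.5 to 53.0% in the deleted libraries and 1.78 to 2.04% in the undeleted ones, and Ighd1-1 is 7.53 to 12.95% against 42.7 to 48.8%.

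Of the 6 VH segments tested, 5 rose, and those 5 lie within 38.3 kb of the first VH. In limma voom on junctions per segment, scaled to all junctions, 16 of 19 segments (84.2%) were called at an adjusted p under 0.05, 6 higher (31.6%) and 10 lower (52.6%) in the deleted line. One of the 6 called higher, the D near Ighd3-1, averaged at least 10 junctions only through the deleted libraries, so it had to differ and its call supports nothing. Ighv5-6, the VH that was not called, reached that average only through the undeleted libraries. Of 140 VH segments, 134 averaged fewer than 10 junctions per library and were not tested. The median log2 change was 3.99 over the 6 VH segments and -0.54 over all 19. With other scalings the latter was -0.08 (median of ratios) and -0.36 (trimmed mean), and the 5 VH rises were called under both. The median of ratios called 7 segments higher and 5 lower, the trimmed mean 6 and 10.

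Ighv5-2, also known as VH81X and known for heavy use in early pro-B cells, took most of the increase. It held 40.9, 40.2, 38.7 and 36.0% of all junctions in the deleted libraries and 0.894, 0.678 and 0.789% in the undeleted ones. Ighv5-2 rose with a log2 change of 5.61 ± 0.18 (SE; limma voom, adjusted p = 3.07e-50). Ighv5-2 alone thus held more of the junctions of the deleted line than any D segment did.

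Ighv2-2, the next VH outward, held 6.09, 6.11, 6.94 and 6.25% against 0.219, 0.292 and 0.244%. Its log2 change was 4.68 ± 0.20 (SE; limma voom, adjusted p = 1.39e-39). The first VH, which lies 5.57 kb closer to the D array than Ighv5-2, held 2.95, 2.56, 2.05 and 2.03% against 0.0482, 0.0789 and 0.0812%. It rose by a log2 change of 5.15 ± 0.38 (SE; limma voom, adjusted p = 2.39e-23). The nearest VH was not the most used: in every deleted library Ighv5-2 and then Ighv2-2 were above the first VH. Whether the RSS or the CTCF core letters bear on the use of these segments was not tested.

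The fourth VH held 0.982 to 1.30% of junctions in the deleted libraries and 0.0789 to 0.145% in the undeleted ones. Ighv2-3 held 0.289, 0.241, 0.450 and 0.270% against 0.0920, 0.0868 and 0.143%, with no overlap, and rose by 1.37 ± 0.35 (log2, SE; limma voom, adjusted p = 0.000188). At Ighv5-6, 52.6 kb from the first VH, the groups overlapped: 0.0666, 0.0718, 0.0563 and 0.0346% against 0.0701, 0.0946 and 0.0860% (log2 change -0.47). This segment passed the filter only through the undeleted libraries, so these values are a description, with no test. Ighv5-6 has the same heptamer and nonamer as Ighv5-2 and the same core letters at the same spacing, and whether these letters bear on use was not tested. Ighv5-12, at 131 kb, had 5, 0, 0 and 9 junctions in the deleted libraries and 12, 7 and 8 in the undeleted ones, and was too rare to test.

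**Figure D2:**
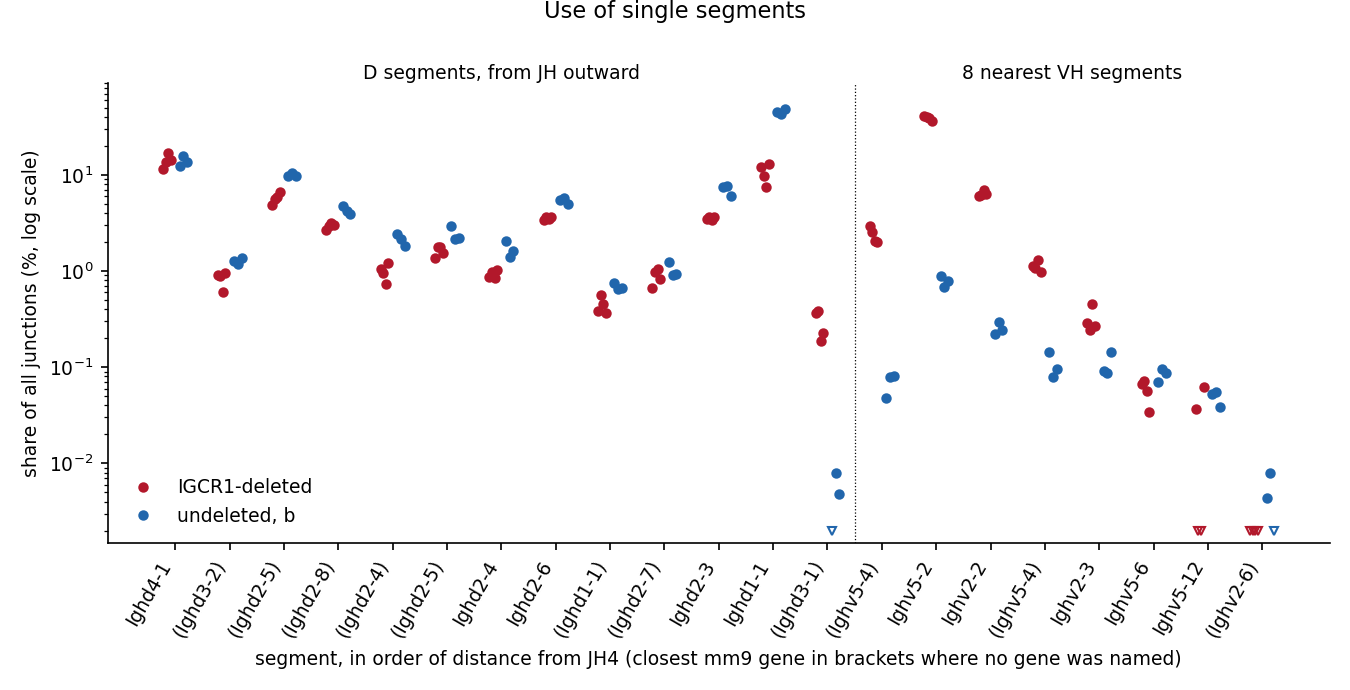
Share of all junctions (%, log scale) at each tested D segment and at the 8 VH segments nearest the D array, in order of distance from JH4, with 1 point per library (red deleted, blue undeleted b) and triangles at the foot for libraries with 0 junctions. The red points stand above the blue from the D near Ighd3-1 to Ighv2-3 and below them at Ighd1-1, and the groups meet at Ighv5-6.

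The size of the difference was smaller with distance from Ighv5-2 outward. With junctions pooled by group, the deleted line exceeded the undeleted line 36.4-fold at the first VH (95% counting interval 26.4 to 51.7), 48.3-fold at Ighv5-2 (44.0 to 53.1), 25.5-fold at Ighv2-2 (21.5 to 30.5), 9.73-fold at the fourth VH (7.48 to 12.8) and 2.60-fold at Ighv2-3 (1.92 to 3.57). The ratio was 0.706 at Ighv5-6 (0.425 to 1.15) and 0.602 at Ighv5-12 (0.292 to 1.19). These intervals cover counting error only and take reads as independent molecules. From Ighv5-2 outward, each of the next 4 VH segments therefore showed a smaller ratio than the one before it.

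Among VH junctions alone, use was concentrated on Ighv5-2. Ighv5-2 made up 79.3, 79.9, 77.8 and 78.7% of VH junctions in the deleted libraries and 51.4, 36.4 and 45.5% in the undeleted ones. In limma voom scaled to VH junctions, 4 of 6 segments (66.7%) were called: 1 was higher (16.7%) and 3 were lower (50%). Ighv5-2 rose by 0.79 ± 0.13 (log2, SE), and the log2 change was -1.40 at the fourth VH and -3.27 at Ighv2-3 (limma voom, adjusted p = 1.63e-06 and 1.04e-12). The third called lower was Ighv5-6, at 0.115% ± 0.0290 (SD, n = 4) of VH junctions against 4.69% ± 0.576 (SD, n = 3). It passed the filter only through the undeleted libraries, so it is given as values, with no test. Ighv2-2 was not called, at 11.8 to 14.0% against 12.6 to 15.7% (log2 change -0.11, 95% interval -0.52 to 0.30), but with the other scalings it was called higher, at 0.61 (median of ratios) and 0.59 (trimmed mean). The first VH was not called (0.30, 95% interval -0.11 to 0.71) and was called higher with those scalings, at 1.12 and 1.18, so that 3 segments were higher and 3 lower under each.

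**Figure D3:**
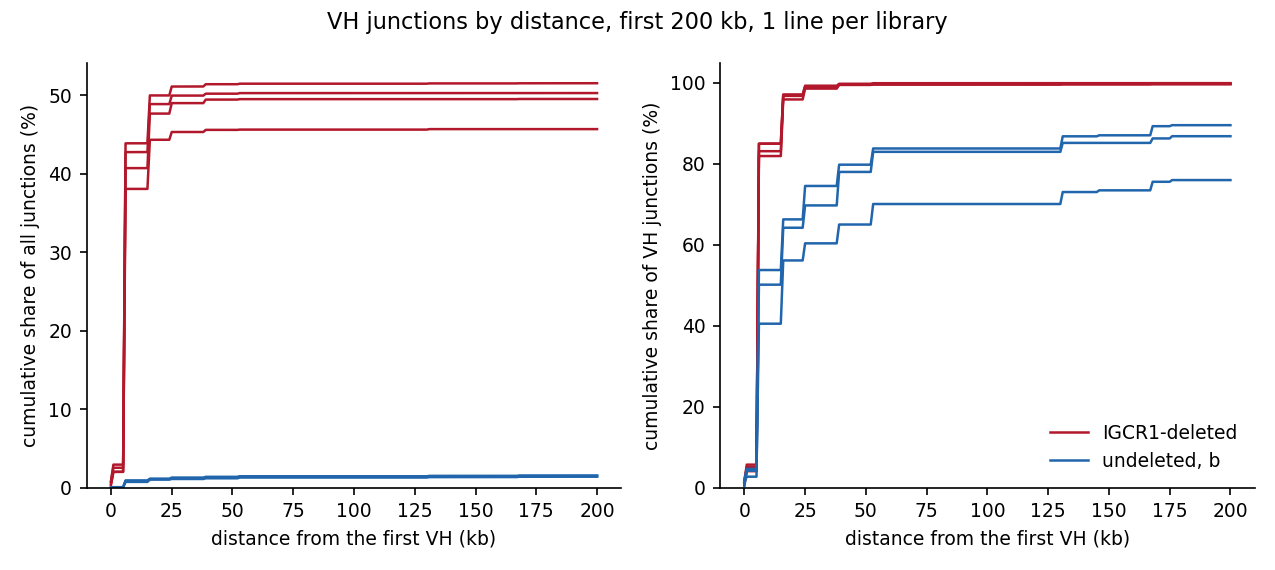
Cumulative share of all junctions (left, %) and of VH junctions (right, %) against distance from the first VH (kb), first 200 kb, 1 line per library. In the deleted libraries (red) the lines climb almost wholly within the first 25 kb, at the positions of the first 4 VH segments; in the undeleted libraries (blue) they go on climbing beyond.

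Farther out, no zone had a higher mean share in the deleted line. A single segment among the 8 VH most used there, at position 115343914, went the other way. It lies 513 kb from the first VH and had 7 junctions in the deleted line and 0 in the undeleted b and a libraries, too few to test. VH junctions over 100 kb from the first VH were 0.377, 0.178, 0.518 and 0.481% of VH junctions in the deleted libraries and 16.7, 30.7 and 18.9% in the undeleted ones. As shares of all junctions, the zone of 100 to 500 kb held 0.0937% ± 0.0344 (SD, n = 4) against 0.159% ± 0.0197 (SD, n = 3; exact permutation p = 0.0571). The zone of 500 to 1200 kb held 0.0550% ± 0.0290 against 0.0719% ± 0.0175 (exact permutation p = 0.429). The zone of 1200 to 2000 kb held 0.0236% ± 0.0171 against 0.116% ± 0.0775, with no overlap (exact permutation p = 0.0286). It rests on 10 junctions in the deleted line and 57 in the undeleted b libraries, and the a libraries had 35. Beyond 2000 kb the values were 0.0232% ± 0.0189 and 0.0599% ± 0.0445 (exact permutation p = 0.171). Of the 5 zones, the first, under 100 kb, was the only one with the higher share in the deleted libraries, at 47.2 to 52.8% of all junctions against 1.32 to 1.49%.

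Diversity of VH use was lower in the deleted line. In samples of 236 VH junctions, the number in the smallest library, a deleted library was expected to show 5.80, 5.30, 6.19 or 5.87 VH segments and an undeleted one 26.3, 37.0 or 29.97. The inverse Simpson number, which counts segments as if equally used, was 1.56 ± 0.0285 (SD, n = 4) against 4.52 ± 1.32 (SD, n = 3). Both differences had exact permutation p = 0.0286. Of the 140 VH segments, 37 had at least 1 junction in the deleted line and 61 in the undeleted line, although the deleted line had far more VH junctions.

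D joining made up 46.5% ± 2.62 (SD, n = 4) of junctions in the deleted line and 96.0% ± 0.0952 (SD, n = 3) in the undeleted line. The D segments did not lose share evenly. Ighd1-1, the D next to the IGCR1 side of the array, held 12, 9.66, 7.53 and 12.95% of all junctions against 45.2, 43.4 and 48.8%. Its log2 change was -2.24 ± 0.17 (SE; limma voom, adjusted p = 3.94e-22). Ighd4-1, the D nearest JH4, held 11.6, 13.7, 16.9 and 14.1% against 12.3, 15.8 and 13.6%. Its groups overlapped (log2 change 0.07, 95% interval -0.26 to 0.39), and it was called higher when scaled by the median of ratios (0.55, adjusted p = 0.00673).

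Between these 2 ends, 7 of the 8 Ighd2 segments, which form the repeated middle of the array, fell, by 0.54 to 1.08 on the log2 scale. The eighth, closest to Ighd2-7, did not pass (-0.30, adjusted p = 0.109). The segment near Ighd3-2 and the second Ighd1 segment, at position 114719358, fell too (log2 change -0.58 and -0.66). Of the 10 falls, 5 depended on the scale: with the median of ratios, the segments near Ighd2-8, Ighd3-2 and Ighd2-5 at 114705399, Ighd2-6 and the second Ighd1 segment no longer passed, while Ighd1-1, Ighd2-3, Ighd2-4 and the segments at 114690286 and 114700407 did.

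Within D junctions, the share of the D nearest JH was higher and that of Ighd1-1 was lower. Ighd4-1 made up 26.3, 29.9, 36.7 and 28.1% of D junctions in the deleted libraries against 12.8, 16.4 and 14.2%. Ighd1-1 made up 27.2, 21.1, 16.3 and 25.8% against 47.1, 45.2 and 50.9%. Neither overlapped (exact permutation p = 0.0286 for each). In limma voom scaled to D junctions, 8 of 13 segments (61.5%) were called, 7 higher (53.8%) and 1 lower (7.69%). Ighd4-1 rose by 1.12 ± 0.17 (log2, SE; limma voom, adjusted p = 4.92e-08), and Ighd1-1 fell, with a log2 change of -1.199 ± 0.18 (SE; limma voom, adjusted p = 4.92e-08). Of the 6 others called higher, 4 were Ighd2 segments, and the rest were the segment near Ighd3-2 and the D near Ighd3-1, whose call supports nothing, as above. With either of the other scalings, of these 7 only Ighd4-1 and the D near Ighd3-1 were still called higher. Ighd1-1 was still called lower, as then were Ighd2-3, which turned from 0.02 to -0.38 or -0.33, and the segment at 114700407, which went from -0.05 to -0.41 or -0.43. Scaled to D junctions alone, the changes between Ighd4-1 and Ighd1-1 did not run in order of distance from JH. The log2 change was -0.05 at 114700407 and 0.74 at 114723458, which is farther from JH.

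The D near Ighd3-1 was nearly silent in the undeleted line. It had 49, 59, 10 and 33 junctions in the deleted libraries and 0, 1 and 1 in the undeleted b libraries, and the a libraries had 0. Every deleted library was above every undeleted one, at 0.363, 0.385, 0.188 and 0.228% of junctions. Pooled, the ratio was 87.6 (95% counting interval 23.8 to 730), which is given as a description. It lies on the VH side of Ighd1-1, and the RSS letters printed for it are the same, spacer included, as those of the segment near Ighd3-2 within the array. That segment held 0.911, 0.894, 0.600 and 0.954% of all junctions against 1.28, 1.19 and 1.37%; it was called lower over all junctions and higher within D junctions, and neither call held with the median of ratios.

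Junctions elsewhere in the interval between the D array and the VH segments also differed. The 5 kb beyond Ighd1-1 held 0.363, 0.196, 0.0563 and 0.249% of junctions in the deleted libraries against 0.802, 0.426 and 0.965%. The groups did not overlap (exact permutation p = 0.0286), but whether part of this window is absent from the deleted line was not determined. The rest of the interval, leaving out the D near Ighd3-1, held 0.222, 0.117, 0.131 and 0.0484% against 0, 0.0158 and 0.00478%. These shares rest on 62 junctions in the deleted line and 3 in the undeleted b libraries, and the a libraries had 7. Here the deleted libraries were the higher, again without overlap (exact permutation p = 0.0571). Joins within the JH cluster held 0.857 to 1.10% against 0.879 to 0.990%, which overlap. With identical junctions counted once they were lower in the deleted line, at 1.14 against 1.59% (exact permutation p = 0.0286).

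**Figure D4:**
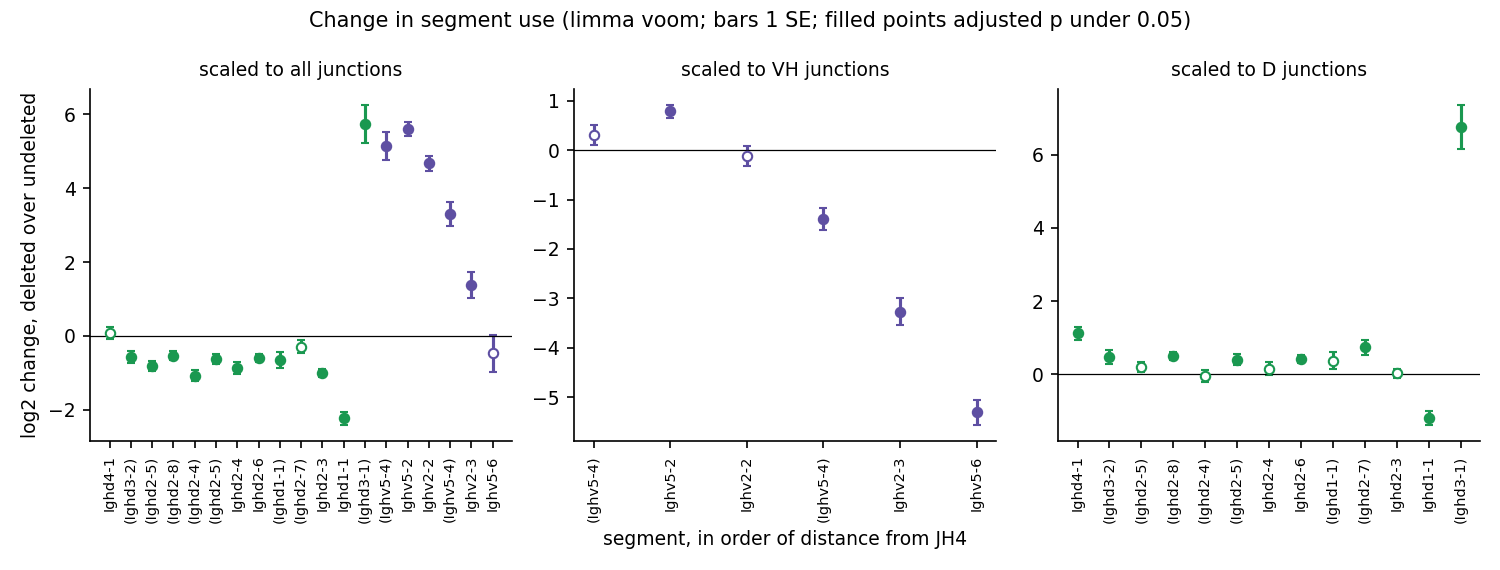
Log2 change in segment use, deleted over undeleted (limma voom; bars 1 SE; filled points adjusted p under 0.05; D segments green, VH segments purple), in order of distance from JH4, scaled to all junctions, to VH junctions and to D junctions; the panels have separate vertical scales. The change is -2.24 at Ighd1-1 and 5.74 at the next D outward, which passed the filter only through the deleted libraries. The change is 5.61 at Ighv5-2 and comes down to -0.47 at Ighv5-6, which passed only through the undeleted libraries.

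VH junctions in minus orientation, in which the prey runs outward from the VH end, were also more frequent among all junctions of the deleted line. There were 184, 176, 54 and 240 of them in the deleted libraries and 7, 4 and 13 in the undeleted ones. As a share of all junctions they were 1.30% ± 0.282 (SD, n = 4) against 0.0414% ± 0.0179 (SD, n = 3; exact permutation p = 0.0286). As a share of VH junctions they were 2.57, 2.23, 1.998 and 3.50% against 1.72, 1.66 and 3.46%, which overlap (exact permutation p = 0.571). At Ighv5-2 the deleted line had 505 such reads within 60 bases of the coding end, 154 of them starting exactly at the first base of the heptamer. A mean of 3.41 bases lay between bait and prey in them, and 405 of the 505 had under 6.

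The bases between bait and prey of a VH junction hold the D segment and the bases added at its joins, so they show which D had been used. The deleted libraries used Ighd4 more and Ighd1 less in VH junctions too. Of inserts that matched a single D family over at least 6 bases, Ighd4 made up 19.95, 18.8, 24.8 and 21.4% in the deleted libraries and 10.6, 10.2 and 10.7% in the undeleted ones. Ighd1 made up 7.85, 7.85, 6.77 and 9.03% against 27.1, 27.1 and 27.1%. Neither overlapped, and both had exact permutation p = 0.0286. Ighd2 was the most common in all libraries, at 67.1% ± 2.15 (SD, n = 4) against 60.9% ± 1.08 (SD, n = 3), and Ighd3 was at 3.84% ± 0.518 against 1.49% ± 0.816 (exact permutation p = 0.0286 for each). Against the a libraries, at 2.58%, the Ighd3 difference did not pass (exact permutation p = 0.171). Among VH inserts of at least 6 bases, a single family was found in 77.9% ± 0.541 in the deleted line and 81.5% ± 3.21 in the undeleted line. In D junctions, whose inserts were taken to hold no further D, the same search found one in 10.4% ± 1.93 and 10.8% ± 1.22. Inserts under 6 bases were not searched and are not in these shares. In the deleted line such inserts were in 2771 of 23944 VH junctions and 19525 of 22606 D junctions. In the undeleted b libraries they were in 86 of 996 and 47054 of 54082. D inserts were shorter, with a median over all inserts of 2 or 3 bases per library against 14 to 16 in VH junctions. Lengths among the searched inserts were not compared, so the D share may understate how often a VH insert matches by chance.

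**Figure D5:**
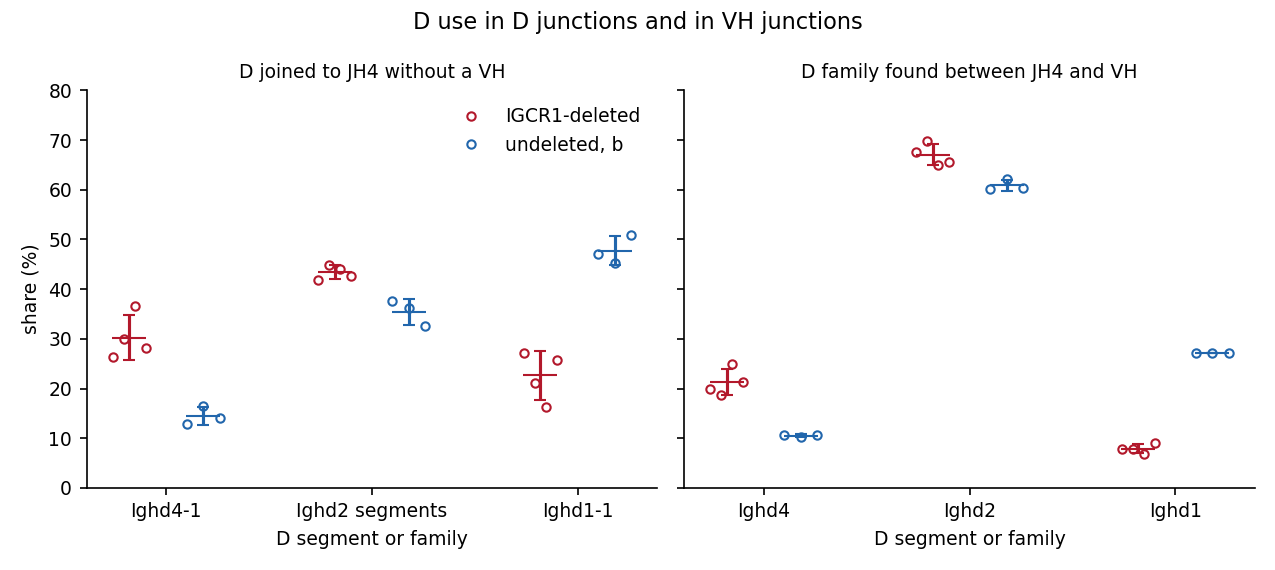
Share (%) of D junctions at Ighd4-1, the Ighd2 segments and Ighd1-1 (left) and share (%) of VH inserts with 1 D family that matched Ighd4, Ighd2 or Ighd1 (right), with a point per library, a bar at the mean and whiskers of 1 SD (red deleted, blue undeleted b). In both panels the Ighd4 points of the deleted libraries lie above, and the Ighd1 points below, all undeleted points.

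Within Ighv5-2 joins alone the groups were apart for Ighd1, and for Ighd4 only against the b libraries. Among Ighv5-2 inserts with 1 family, Ighd1 was 7.63, 7.95, 7.47 and 8.87% in the deleted libraries and 20.7, 20.3 and 16.4% in the undeleted b libraries. Ighd4 was 19.7, 18.5, 24.4 and 20.9% against 11.4, 15.6 and 13.3%. The undeleted values rest on 140, 64 and 128 inserts, and the a libraries gave 18.4, 6.33 and 19.5% for Ighd4, which overlap those of the deleted line. These values were not tested. Single joins of Ighv5-2 show what was counted; the join with the given family seen in most deleted libraries is shown, with 20 bases of bait and 30 of prey in lower case and all bases between them in capitals.
Ighv5-2 with Ighd2: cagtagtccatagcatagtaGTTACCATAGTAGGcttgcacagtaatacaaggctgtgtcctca
Ighv5-2 with Ighd4: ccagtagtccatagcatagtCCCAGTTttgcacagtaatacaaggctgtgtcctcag
Ighv5-2 with Ighd1: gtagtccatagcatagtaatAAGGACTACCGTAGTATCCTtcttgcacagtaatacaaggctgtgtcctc
Ighv5-2 in minus orientation: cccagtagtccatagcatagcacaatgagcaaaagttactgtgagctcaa

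In the last of these, bait and RSS meet with no base between them, and the heptamer begins right after the bait. The first 3 were read in 2, 3 and 1 of the deleted libraries and the last in 3.

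The structure of VH junctions differed a little. The mean number of bases between bait and VH was 13.7, 13.5, 13.5 and 13.6 in the deleted libraries and 15.0, 14.7 and 14.9 in the undeleted ones. The deleted values were all lower (exact permutation p = 0.0286). VH junctions with under 6 bases between made up 11.4% ± 0.664 (SD, n = 4) against 8.51% ± 0.778 (SD, n = 3; exact permutation p = 0.0286). No library had a junction with over 30 bases between, so long inserts are not represented in either group. For D junctions the mean was 2.73 ± 0.175 against 2.63 ± 0.0113 bases, with overlap (exact permutation p = 0.714), and bait and prey shared bases in 9.39% ± 1.53 against 9.81% ± 0.303. With identical junctions counted once, the D means were 3.47 against 3.85 bases and the shared bases 4.04 against 2.75%, the opposite directions (exact permutation p = 0.0286 for each). VH junctions with shared bases were rare, at 0.557% ± 0.179 and 0.569% ± 0.387. The bases missing from the JH4 coding end averaged 4.497 ± 0.172 against 5.01 ± 0.280 in VH junctions (exact permutation p = 0.0571) and 4.80 ± 0.0962 against 4.61 ± 0.162 in D junctions.

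The parental line, which carries neither the deletion nor the degron, stood between the groups in VH share and beyond the undeleted line in D use. Its VH share was 3.18, 4.33, 5.20 and 4.76%, below every deleted library (exact permutation p = 0.0286, the smallest for 4 against 4) and above every undeleted one. Ighv5-2 made up 46.7 to 53.3% of its VH junctions. Ighd1-1 made up 64.6 to 65.7% of its D junctions and Ighd4-1 5.42 to 7.66%, so in D use the deleted line differed from the parental line in the same direction as from the undeleted line, and by more. In VH inserts Ighd1 made up 24.3 to 31.1% and Ighd4 5.88 to 6.56%. The undeleted and parental lines also differ by the degron, and their difference was not tested here.

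Outside the Igh locus, junctions in the Igk locus, the light chain locus that holds VK and JK segments with RSSs of their own, made up 0.614, 0.607, 0.826 and 0.512% of junctions in the deleted libraries and 0.184, 0.331 and 0.244% in the undeleted ones. The groups did not overlap (exact permutation p = 0.0286). Junctions on other chromosomes were 0.178, 0.326, 0.957 and 0.346% against 0.149, 0.229 and 0.177%, which overlap, the highest being deleted replicate 3.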

How the data were processed

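Reads of linear-amplification translocation sequencing were deposited by the authors as 1 line per junction, with positions and read sequence and no counts per segment. Per the labels, reads were aligned to a hybrid of mm9 and another Igh sequence; the submitters' processing notes name Bowtie2 and mm9, and the filters are not given in the sources used here. The deposited columns used are positions and lengths in bases, no log2 or other normalised value. The hybrid sequence was not used here, so mm9 positions come from matching prey reads with BLAST 2.17.0.

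Positions lay 3 bases to one side of those of bone marrow libraries in b libraries and 3 to the other side in a libraries; this was removed. Segments were defined as positions where junctions in plus orientation pile up in the 98 full libraries, 167 in all (140 VH, 27 D), and named where an mm9 end matched uniquely at 98% identity or more. Junctions within 100 bp were assigned to a segment. The 12 off-target lists were not analysed here.

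Groups came from titles. Shares were compared by two-sided exact permutation of group means. Segments with a mean of at least 10 junctions per library were tested with limma 3.58.1 voom (R 4.3.3), pseudocount 0.5, Benjamini-Hochberg adjusted; the spread is pooled over few segments, so very small p-values rest on that pooling. In 50 rounds of simulated data with 4-fold changes the fit over all junctions recovered 100% of changed segments and called 2.15% of unchanged ones. The VH fit recovered 100% and called 6%, the D fit 99% and 3.43%. The simulated libraries kept their totals, so a rise at any segment lowered no other, and their spread was set in advance. These rates therefore do not apply to the shares here, where a rise lowers the rest. Same-numbered libraries showed no steady tendency to deviate together (correlations -0.59, 0.52 and -0.07), and numbers were not used as pairs. So few correlations cannot exclude pairing. D families in inserts needed an exact match of 6 bases. Named were every tested D, the 8 VH nearest the D array with a junction, the 8 VH most used in the deleted line, and per fit up to 6 called, non-overlapping segments in each direction with the largest change. The comparison, lists and tests were chosen with earlier results of these data known.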

Additional observations from a re-analysis of the deposited data

Results flagged for a closer look

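With 4 libraries, the deleted line was checked in 51 measures, and the parental line in 6, for a library far from the other 3; chance sets off about 1 in 20 such checks. In all, 4 values stood apart, each in deleted replicate 3, the shallowest library, from another run than the other 3. It had 0.600% of junctions at the segment near Ighd3-2, against 0.894 to 0.954% in the others. The fourth VH, position 114855361, made up 2.61% of its VH junctions, against 2.14 to 2.18%. Its D junctions had a mean of 2.98 bases between bait and prey, against 2.62 to 2.68, and 84.0% of them had under 6, against 86.6 to 86.7%. The part of depth and run in these values was not tested.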

How the results depend on the processing

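The differences in VH share, in the Ighv5-2 share of VH junctions, in Ighd4-1 and Ighd1-1 within D junctions and in Ighd4 and Ighd1 within VH inserts kept their direction under every alternative run. Leaving out 1 library at a time, they ranged from 48.1 to 49.9 points for VH, 30.5 to 38.0 for Ighv5-2, 13.7 to 17.1 for Ighd4-1, -26.7 to -23.0 for Ighd1-1, 9.54 to 11.6 for Ighd4 and -19.6 to -18.9 for Ighd1; with 6 libraries the exact test cannot pass 0.05. Segments called then numbered 16 over all junctions, 3 to 4 within VH and 6 to 9 within D.

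Replicate numbers did not pair the libraries. With the replicate block, which leaves out deleted replicate 4, the same differences were 49.9, 34.6, 16.5, -26.2, 10.7 and -19.6 points. Each had p = 0.25 in an exact sign-flip test of paired differences, the smallest for 3 pairs. The segments called in limma numbered 15, 4 and 7. The minus-orientation share of VH junctions was -0.0127 under the block.

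Within VH junctions, 70 segments were called with no filter (1 higher, 69 lower), where 72 VH segments had a junction in either group. The deleted libraries held 2647 to 7707 VH junctions each and the undeleted b libraries 236 to 397. A segment without junctions, given the same pseudocount in every library, therefore comes out lower in the deleted line through scaling alone. Lower calls at rare segments cannot be told apart from this effect, and its part was not tested. Within D junctions, 5 were called with either other scaling, 18 with no filter and 5 with identical junctions counted once.

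Other directions turned, in results that were not called as reported; 4 of them then reached the smallest exact permutation p. As a share of all junctions, the Ighd4-1 difference was -2.59 points with identical junctions counted once, -1.02 against a libraries, -0.411 against the mean of a and b, and -0.745 to 1.13 leaving out 1 library. The JH cluster gave -0.447 with identical junctions once and -0.0182 against a. With identical junctions counted once, D junctions gave -0.381 for mean bases between, 3.27 for under 6 bases, 1.30 for shared bases (exact permutation p = 0.0286 for each, as for the JH cluster) and -0.346 for bases missing from JH4 (exact permutation p = 0.0571). The last was -0.206 against a and -0.0125 against the mean. VH junctions with shared bases gave 0.243 against a and 0.116 against the mean, and minus-orientation bases between gave 0.0962 against a. Leaving out 1 library, the ranges were -0.0149 to 0.884 for minus orientation among VH, -1.20 to 0.287 for D inserts with 1 family, -1.74 to 0.527 for minus-orientation bases, -0.159 to 0.207 for VH shared bases and -0.925 to 0.292 for D shared bases.

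On the log2 scale over all junctions, Ighd4-1 was -0.00380 with no filter, -0.27 with identical junctions once, -0.0356 against a and -0.0903 to 0.195 leaving out 1 library. With the median of ratios the segment at 114723458 was 0.16 and Ighv5-6 0.0158. Within VH, Ighv2-2 was 0.61 with the median of ratios and 0.59 with the trimmed mean. Within D, these scalings gave -0.19 and -0.15 at 114690286, -0.20 and -0.23 at Ighd2-4, and -0.38 and -0.33 at Ighd2-3. Identical junctions once gave -0.13 at Ighd2-4 and -0.12 at Ighd2-3. Leaving out 1 library gave -0.18 to 0.0737 at 114700407 and -0.0667 to 0.12 at Ighd2-3. Apart from the scalings and the leaving out of libraries, the cause of these turns was not tested. Depth limits the distant VH segments most, 134 of 140 being too rare to test.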
